A study of Callithrix jacchus with 54 samples.

Results

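Common marmoset primordial germ cell-like cells (cjPGCLCs) were compared before and after they entered a xenogeneic reconstituted ovary (xrOvary), an aggregate of germ cells with gonadal somatic cells of another species. The comparison holds 4 of the 54 RNA-seq libraries of the series, chosen by their labels: 2 of sorted cells at day 6 of induction and 2 of sorted cells from xrOvaries at day 20. Primordial germ cells are the founders of sperm and eggs. They are specified in the early embryo by BMP and WNT signals, reach the gonad by migration, and there meet somatic cells that guide them toward the later steps of germ cell development, including the erasure of DNA methylation, the silencing of transposons by piRNAs and, in the ovary, entry into meiosis. In culture, PGCLCs resemble early primordial germ cells, and contact with gonadal somatic cells is used to carry them further.

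Both groups came from the same marmoset embryonic stem cell line, CMES40, labelled wild type, in which tdTomato had been inserted at BLIMP1 (PRDM1) and eGFP at NANOS3. The cjESCs were kept in PESFA, a primate ESC medium with bFGF and activin A, pre-treated for 24 h with the WNT agonist IM12 and activin A, and then cultured with LIF, SCF, EGF and BMP4 together with the WNT pathway inhibitor IWR1 and a Rock inhibitor, until tdTomato(+) cells were sorted at day 6. For the xrOvary, such day 6 cells were aggregated with somatic cells of mouse fetal ovaries from which the mouse germ cells had been removed, with retinoic acid present at first, and were then cultured in serum-containing media without the induction cytokines. The tdTomato(+) cells were sorted again at day 20, after a different dissociation from that used at day 6. Culture age, contact with mouse cells, retinoic acid, medium, withdrawal of BMP4 and dissociation all change between the groups and cannot be told apart. The line is a single targeted reporter line, and because both groups were sorted on the BLIMP1 reporter, a maintained PRDM1 level is no finding.

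Expression is given as TPM (an abundance corrected for transcript length and scaled to a fixed total of transcripts per library), in a table limited to the genes that marmosets share with humans. Read depth is unknown, since TPM keep no read totals. Differences are given as day 20 minus day 6 in log2(TPM + 1), a scale that understates changes of weakly expressed genes, and were tested with limma. With 2 libraries a group, the spread was pooled over all 27 groups of the series, because permuting the 4 libraries of a gene could not give a two-sided p below 0.333. The study calls its duplicates biological, and the labels do not say whether they began as separate inductions. The p-values therefore measure the spread between duplicates over the whole series, not that of the 4 libraries compared. Values of a pair of libraries are given as replicate 1, then replicate 2.

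The 2 day 20 libraries differed from each other more than those of day 6. The SD of their difference across genes was 0.56 on the log2 scale, the widest of the 27 pairs of the series, against 0.32 for the day 6 pair. The SEs and p-values given below use the spread pooled over all 27 pairs, so they do not reflect this wider spread in full. More than 2-fold apart were 874 genes, a number exceeded by 1 other pair of the series (935), against 146 at day 6. Of the 11197 genes tested, 1620 (14.5%) were listed at 0 in day 20 replicate 2, the highest number of the 54 libraries, and 912 in day 20 replicate 1, while the day 6 libraries had 664 and 548.

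Between day 6 and day 20, 257 of 11197 genes (2.3%) were differentially expressed genes (DEGs), defined by a change of more than 4-fold, an adjusted p below 0.01 and a mean over the 4 libraries above 1.5 in log2. Of these, 67 (0.598%) were higher and 190 (1.7%) lower in the xrOvary. The median size of the difference was 2.52 among the higher and 2.58 among the lower genes on the log2 scale. Genes that rose started low, with a median over genes of 1.91 TPM at day 6 and 18.0 TPM at day 20, and genes that fell went from a median of 21.0 TPM to 2.6 TPM. In 49 of the 190 lower genes a day 20 library was listed at 0, in 44 of them replicate 2, and 5 genes were at 0 in both. Without day 20 replicate 2, 55 genes were higher and 194 lower, and 197 of the 257 DEGs were called again. Without any threshold on the fold, 2283 genes (20.4%) passed an adjusted p of 0.01, 735 higher (6.56%) and 1548 lower (13.8%); without day 20 replicate 2 there were 1480, of which 447 were higher. The split depended on the scaling of the libraries: after quantile normalization 1113 were higher and 1255 lower, and the median difference of all genes tested moved from −0.08 to 0.05. Fewer cells of a kind and less RNA per cell cannot be told apart in such bulk libraries.

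**Figure D1:**
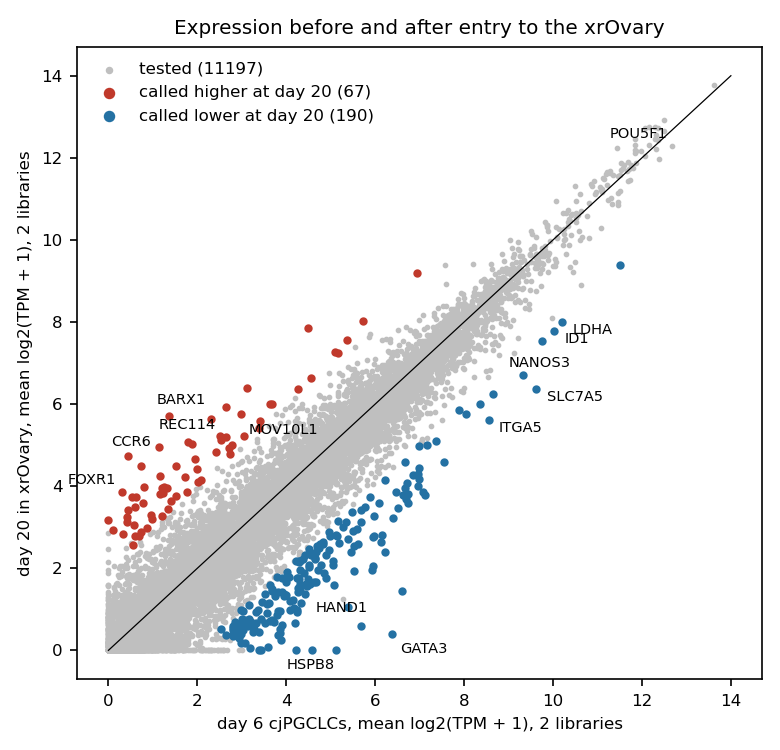
Mean log2(TPM + 1) of each of the 11197 genes tested in the 2 day 6 libraries (horizontal axis) and the 2 day 20 libraries (vertical axis), with the 67 DEGs higher at day 20 in red and the 190 lower in blue; the line marks equal values. GATA3, HAND1 and HSPB8 lie near the floor at day 20, BARX1 and CCR6 rise from low levels, and POU5F1 stays near the line among the most abundant genes.

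The largest fall in log2(TPM + 1) was that of GATA3 (gene 100389441), a transcription factor of amnion and trophoblast that BMP signaling induces. GATA3 stood at 66.6 and 102 TPM at day 6, and at 0 and 0.75 TPM at day 20. Both day 6 libraries were high, both day 20 libraries were at or near the floor, and the groups were far apart (log2 difference −5.98, SE 0.28, adjusted p = 7.18e-18). With a pseudocount of 0.1, HSPB8 ranked before it. GATA3 had been induced along the way to cjPGCLCs, from 8.33 and 7.41 TPM in cjESCs to 166 and 160.4 TPM at 48 h of induction, and it was listed at 0 in all 4 libraries of days 40 and 70. GATA2 (gene 100411598), a related factor, fell from 86.0 and 108 TPM to 2.2 and 1.34 TPM (log2 difference −5.16, SE 0.33, adjusted p = 9.07e-15). The day 20 libraries were both low and did not reach those of day 6.

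HAND1 (gene 100399939), a bHLH factor of amnion and lateral mesoderm, was at 38.1 and 66.5 TPM at day 6 and at 0 and 1.26 TPM at day 20. It was thus near the floor in both xrOvary libraries (log2 difference −5.10, SE 0.32, adjusted p = 4.3e-15). HAND1 was highest at 48 h, in cells not yet sorted, at 1176 and 1186 TPM, and the sorted cells at 96 h, with 40.0 and 64.2 TPM, were close to those at day 6. At days 40 and 70 it ranged from 0 to 0.78 TPM.

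These genes belong to a list of 35 BMP targets and factors of amnion or lateral mesoderm, of which 31 were tested. The list was chosen with earlier results of these data known. It holds GATA3, HAND1 and BARX1, which were picked as markers of this step, so its shares are a description and no test. Of the 31, 12 (38.7%) fell and 1 (3.23%) rose past an adjusted p of 0.01, beside 13.8% and 6.56% of all genes tested, and the median difference was −0.71 beside −0.08. Without each library of the comparison in turn, the same 12 genes fell. The summed level of the list went from 2675 and 3132 TPM at day 6 to 1012 and 870.5 TPM at day 20. ID1, an inhibitor of bHLH factors and a direct target of BMP-SMAD signaling, was its most abundant member, with 955 and 1126 TPM at day 6 and 285 and 169 TPM at day 20. Both day 20 libraries were well below both of day 6 (log2 difference −2.24, SE 0.18, adjusted p = 3.24e-12), and by day 70 ID1 was at 96.4 and 98.1 TPM, lower than the 150 and 114 TPM of cjESCs. ID3, its close relative, fell from 549.9 and 637 TPM to 228 and 164 TPM (log2 difference −1.61, adjusted p = 2.75e-09).

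The other genes of this list past the threshold, named here after their values were seen, were ID4, the homeobox genes MSX1, MSX2 and DLX3, the pseudoreceptor BAMBI, and SMAD6 and SMAD7, which restrain BMP and TGFβ signaling and are induced by it. BAMBI went from 251 and 275 TPM to 61.4 and 46.6 TPM, and SMAD7 from 66.7 and 80.7 TPM to 26.2 and 16.8 TPM. In both genes the 2 day 20 libraries were the lower ones, without overlap. BMP4 itself and its receptor BMPR1A, also singled out after their values were seen, did not pass: BMP4 was at 162 and 145 TPM at day 6 and 153 and 194 TPM at day 20 (adjusted p = 0.566), and BMPR1A at 56.9 and 54.5 TPM and at 48.0 and 57.1 TPM (adjusted p = 0.793). Transcripts of the ligand and of this receptor were thus present in all 4 libraries, with overlapping groups.

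BARX1 (gene 100402407), a homeobox factor best known from stomach and facial mesenchyme, was the member of this list that went the other way, and in log2(TPM + 1) it had the largest rise of all genes tested, ahead of CCR6. This order turned without day 6 replicate 1, without day 20 replicate 1 or with a pseudocount of 0.1. BARX1 was at 1.26 and 1.92 TPM at day 6 and at 49.6 and 53.0 TPM at day 20. The 2 xrOvary libraries were close to each other and far above those of day 6 (20.4-fold in TPM + 1, log2 difference 4.35, SE 0.33, adjusted p = 8.31e-13). From cjESCs to day 6 no library of this course had more than 3.2 TPM of BARX1. It stood at 41.1 and 38.8 TPM at day 40 and at 25.4 and 28.8 TPM at day 70.

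CCR6 (gene 100895784), the chemokine receptor for CCL20 known from lymphocytes, rose from 0.54 and 0.18 TPM to 18.6 and 34.9 TPM. Replicate 2 of day 20 was the higher, and both were far above day 6 (19.7-fold in TPM + 1, log2 difference 4.30, SE 0.32, adjusted p = 2.83e-13). The size depends on the pseudocount, since with 0.1 in place of 1 the log2 difference was 5.92. CCR6 was listed at 0 in cjESCs, in pre-treated cells and in the libraries of 12, 24 and 48 h. At day 70 it was at 7.72 and 10.96 TPM.

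**Figure D2:**
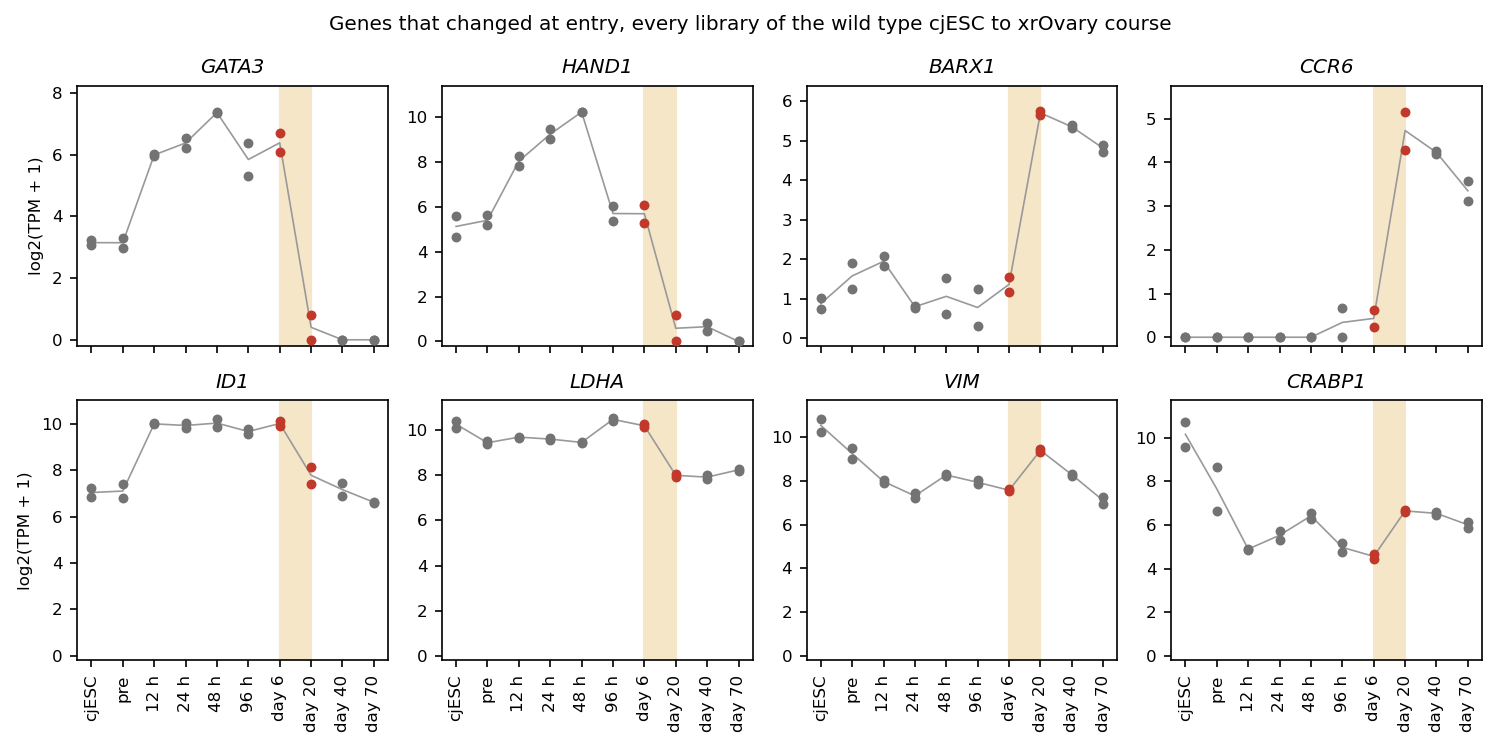
log2(TPM + 1) in every library of the course from cjESCs through pre-treatment (pre) and induction to day 70 in the xrOvary, for 8 genes that changed at entry; points are libraries (2 a group), lines join group means, and red points in the shaded interval are the day 6 and day 20 libraries compared. GATA3 and HAND1 drop to the floor, BARX1 and CCR6 appear at day 20, and VIM falls again after it.

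Other genes among the largest rises included FOXR1 and REC114, described with the germ cell genes further on. ELAVL3, a neuronal RNA-binding protein, went from 1.48 and 0.94 TPM to 27.9 and 32.2 TPM. ATP6V1B1, a subunit of the proton pump of acid-secreting cells, went from 0.5 and 0.84 TPM to 15.9 and 28.7 TPM. HPCA, the neuronal calcium sensor hippocalcin, rose from 3.09 and 5.06 TPM to 43.5 and 55.0 TPM. In these 3 genes both day 20 libraries exceeded both day 6 libraries by a wide margin, with log2 differences of 3.82, 3.75 and 3.33. PIANP, a membrane protein that binds PILRα, rose from 8.96 and 6.46 TPM to 82.2 and 85.0 TPM and stood at 176 and 151 TPM at day 70. It was thus higher with each later sampling until then, by group means.

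Other genes with the largest falls differed in known function. HSPB8, a small heat shock protein, was at 40.8 and 28.1 TPM at day 6, FERMT1 (kindlin-1), which activates integrins in epithelia, at 19.9 and 26.6 TPM, and HES1, the repressor through which Notch acts, at 17.3 and 18.1 TPM. All 3 were listed at 0 in both day 20 libraries, so no fold is given (adjusted p = 1.27e-16, 1.31e-16 and 7.98e-14). NRP2, a coreceptor for semaphorins and VEGF, fell from 38.3 and 43.1 TPM to 0.79 and 1.38 TPM, and CPVL, a serine carboxypeptidase, from 65.0 and 55.8 TPM to 3.03 and 2.77 TPM. Both had low values in both day 20 libraries, with log2 differences of −4.33 and −3.97. HES1 was above 0 again at day 40, with 1.3 and 1.7 TPM (day 40 minus day 20, adjusted p = 0.00274).

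The identity of the sorted cells was checked against 8 markers of PGCLCs, all of which were above 0 in every library of the comparison. Their summed level was 10420 and 10790 TPM at day 6 and 7679 and 8108 TPM at day 20. The most abundant was POU5F1 (gene 100384946), the pluripotency factor that germ cells keep, at 6448 and 6598 TPM before and 4891 and 5079.9 TPM after entry. Both day 20 libraries were lower, by a small step (log2 difference −0.39, SE 0.10, adjusted p = 0.00203), which did not pass after median-ratio scaling of the libraries (adjusted p = 0.0506) or without any one of the 4 libraries (adjusted p from 0.0107 to 0.0231). NANOG, its partner, was at 899.6 and 874 TPM and then at 785 and 847 TPM, and TFAP2C, a PGC specifier, at 770.0 and 829 TPM and then at 730.2 and 722 TPM. Neither passed the threshold (adjusted p = 0.66 and 0.633), although in both the day 20 libraries were the lower ones. SOX17, the endoderm and germ cell factor that leads primate PGC specification, was at 617 and 708 TPM and then at 334 and 408 TPM (log2 difference −0.84, adjusted p = 0.0244). The groups did not overlap and the difference did not pass, except in a fit of the sorted libraries alone.

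The fall of NANOS3 (gene 100405226), an RNA-binding protein that protects migrating germ cells from death, was larger. It went from 394 and 487 TPM to 127 and 169 TPM. Both xrOvary libraries were below both of day 6 (log2 difference −1.57, SE 0.29, adjusted p = 6.91e-05), and close to the 146 and 225 TPM of the sorted cells at 96 h, from which NANOS3 had risen to day 6 (adjusted p = 0.00596). PDPN, the surface glycoprotein podoplanin used to sort primate PGCLCs, fell from 1064 and 1037 TPM to 636 and 674 TPM (log2 difference −0.68, adjusted p = 0.000113). KIT, the receptor for SCF, was low at both times, with 5.16 and 3.99 TPM and then 2.29 and 1.31 TPM (log2 difference −1.01, adjusted p = 0.000213), and did not pass without day 20 replicate 2 (adjusted p = 0.0211), without day 6 replicate 1 (adjusted p = 0.012) or with a pseudocount of 0.1 (adjusted p = 0.121). PRDM1, on whose reporter the cells were sorted, was at 221 and 253 TPM and at 175 and 206 TPM (adjusted p = 0.278).

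Among 12 tested genes of PGC specification, 3 (25.0%) fell (NANOS3, PDPN and KIT) and 2 (16.7%) rose, beside 13.8% and 6.56% of all genes tested, and the median difference was 0.12. SOX15, a germ cell SOX factor, rose from 75.2 and 85.7 TPM to 175 and 211 TPM, and KLF4, a pluripotency factor shared with germ cells, from 83.2 and 70.4 TPM to 133 and 181 TPM. Both day 20 libraries were the higher ones in each gene (log2 differences 1.25 and 1.01, adjusted p = 0.000259 and 0.000121). The rise of KLF4 did not pass without day 20 replicate 2, which left 1 riser in the list.

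Of 20 pluripotency genes, 7 (35.0%) fell and 2 rose, beside 13.8% and 6.56% of all genes tested, with a median of −0.32. Without a library in turn, 3 or 4 fell, a share nearer to that of all genes. TBX3, a T-box factor induced by BMP and WNT signals, had the largest called fall, from 17.8 and 26.1 TPM to 2.5 and 2.18 TPM (log2 difference −2.76, adjusted p = 1.24e-09). It was low in both xrOvary libraries. ZIC2, of primed pluripotency, was at 3.84 and 6.62 TPM at day 6 and listed at 0 in both day 20 libraries (adjusted p = 0.000986), and did not pass without day 6 replicate 2 or day 20 replicate 2. ESRRB, an orphan receptor of naive pluripotency, rose from 0.48 and 0 TPM to 2.72 and 2.31 TPM, and DPPA2, a chromatin-bound factor, from 0.73 and 2.72 TPM to 8.06 and 7.03 TPM. These 2 rises started near the floor (log2 differences 1.53 and 1.75), and each lost its call without one day 6 library, replicate 2 for ESRRB and replicate 1 for DPPA2, which did not pass in the sorted libraries alone either. SALL4 was at 194 and 199.5 TPM and then at 152 and 159.8 TPM, and LIN28A, an inhibitor of let-7, at 919 and 811 TPM and then at 602 and 807 TPM. Neither passed (adjusted p = 0.0525 and 0.0745), with the day 20 libraries lower in both.

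Genes of later germ cells were read next, since contact with gonadal cells is meant to lead toward them. DDX4 (VASA), a helicase of gonadal germ cells, was listed at 0 in all 4 libraries, with 0.51 and 0.62 TPM at day 40 and 2.42 and 2.48 TPM at day 70. DAZL, an RNA-binding protein that licenses germ cells for sexual differentiation, was at 0 in both day 6 libraries and at 0.39 and 0 TPM at day 20, and PIWIL2, a piRNA-binding protein, did not exceed 0.61 TPM in either group. At day 20 these 3 genes were thus at or near the floor and did not pass (adjusted p = 1, 0.654 and 0.74), and DAZL reached 51.9 and 53.9 TPM only by day 70.

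Of 18 later germ cell regulators in the table, 13 passed the filter on low values and were tested. A gene could pass it through any library of the series, xrOvary libraries included, so the shares are a description alone. Of the 13, 5 (38.5%) rose and 0 fell past an adjusted p of 0.01, beside 6.56% and 13.8% of all genes tested, with a median of 0.24. Limma gave 3 risers without day 20 replicate 2 and 3 risers and 1 faller with a pseudocount of 0.1; over all genes, 4351 had an unadjusted p under 0.05. DMRT1 (gene 100386463), a factor of the germ line and of gonadal sex, was at 5.4 and 5.95 TPM at day 6 and at 30.0 and 23.2 TPM at day 20. Both xrOvary libraries were above both of day 6 (4.1-fold in TPM + 1, log2 difference 2.04, SE 0.24, adjusted p = 2.09e-08). DMRT1 had first appeared by 96 h, with 5.77 and 4.8 TPM after at most 0.08 TPM until 48 h, and reached 34.6 and 34.8 TPM at day 40. MAEL, a piRNA pathway protein that also silences transposons, rose from 7.06 and 7.07 TPM to 22.2 and 17.1 TPM (log2 difference 1.34, adjusted p = 0.000165), and on to 69.4 and 72.4 TPM at day 70. Each library of day 20 was above those of day 6. STK31, a kinase-domain protein of germ cells, went from 13.3 and 13.5 TPM to 26.2 and 35.0 TPM, and CPEB1, a regulator of poly(A) tails in oocytes, from 6.51 and 6.33 TPM to 15.1 and 16.8 TPM. Both were higher in both day 20 libraries (adjusted p = 0.00318 and 0.00033), and neither passed with a pseudocount of 0.1, nor STK31 without day 20 replicate 2 (adjusted p = 0.0639) or without either day 6 library. The fifth riser, ELAVL2, an RNA-binding protein named after its values were seen, was at 0 at day 6 and at 0.65 and 1.72 TPM at day 20. RBM46, needed for meiotic progression and among the most abundant of the list, was at 19.2 and 18.5 TPM and at 14.1 and 17.9 TPM (adjusted p = 0.503).

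In the piRNA pathway, through which germ cells silence transposons, 4 of 20 tested genes (20.0%) rose and 2 fell, beside 6.56% and 13.8% of all genes tested, with a median of 0.02. The 20 are those of 26 in the table that passed the filter on low values, so these shares too are a description alone. MOV10L1 (gene 100397701), the helicase that feeds precursors into piRNA processing, rose from 5.65 and 6.03 TPM to 34.1 and 28.8 TPM. The xrOvary libraries were close to each other and above those of day 6 (4.73-fold in TPM + 1, log2 difference 2.24, SE 0.26, adjusted p = 2.09e-08). TDRKH, a Tudor protein that anchors PIWI proteins at mitochondria, rose from 111 and 106 TPM to 206 and 238 TPM (log2 difference 1.02, adjusted p = 1.38e-06). MAEL was the third, and TDRD7, another Tudor protein, named after its values were seen, rose from 51.5 and 57.5 TPM to 107 and 115 TPM. In each the groups were apart. PLD6, the mitochondrial nuclease or lipase of the pathway, fell from 20.3 and 19.4 TPM to 7.73 and 7.21 TPM, and TDRD6, a Tudor protein of the chromatoid body, from 7.82 and 8.0 TPM to 3.89 and 1.98 TPM. Thus members of the pathway moved in both directions (log2 differences −1.30 and −1.22), and the fall of TDRD6 did not pass without day 20 replicate 2. The chaperone HSP90AA1, the most abundant of the list, did not pass (adjusted p = 0.0166).

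Of 51 named genes of meiotic prophase, 40 were in the table and 21 tested, and of these 5 (23.8%) rose and 1 (4.76%) fell, beside 6.56% and 13.8% of all genes tested, with a median of 0.31. A list of which only part passed a filter on low values is described by these numbers alone. REC114 (gene 100396799), a partner of the machinery that makes meiotic double-strand breaks, was at 2.71 and 2.2 TPM at day 6 and at 50.8 and 21.3 TPM at day 20. The xrOvary libraries were more than 2-fold apart and both above day 6 (9.87-fold in TPM + 1, log2 difference 3.30, SE 0.37, adjusted p = 5.68e-09). At day 40 REC114 was at 56.9 and 70.3 TPM. HELLS, a chromatin remodeler that works with the hotspot factor of meiosis and also in somatic cells, rose from 109 and 101 TPM to 162 and 163 TPM (log2 difference 0.63, adjusted p = 0.000436). HORMAD2, of the chromosome axis, was listed at 0 at day 6 and at 1.09 and 2.49 TPM at day 20, and MEIOB, which binds single-stranded DNA in recombination, rose from 1.62 and 1.48 TPM to 4.53 and 6.52 TPM. The fifth, IHO1, named after its values were seen, was at 0.18 and 0.38 TPM and at 0.39 and 2.67 TPM. Its rise rested on day 20 replicate 2 (adjusted p = 0.741 without it), MEIOB did not pass without that library or either of day 6, and HELLS not without day 6 replicate 2. The list had 3 risers without day 20 replicate 2, with a pseudocount of 0.1 or in a fit of the sorted libraries alone, neither of which kept MEIOB, and 2 without day 6 replicate 2.

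STRA8, which retinoic acid induces at meiotic entry, went the other way, from 3.09 and 4.09 TPM to 0.67 and 0 TPM. It was low in both xrOvary libraries (log2 difference −1.82, SE 0.25, adjusted p = 3.54e-07), and at days 40 and 70 it did not exceed 0.3 TPM. Without day 20 replicate 1 the list had 2 fallers. SYCE3, a synaptonemal complex protein, was at 8.48 and 1.64 TPM and at 14.03 and 11.7 TPM. The 2 day 6 libraries differed widely, and the difference did not pass (adjusted p = 0.081).

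Of 18 oocyte-associated genes in the table, 12 passed the filter on low values. Among these 12, 1 (8.33%) rose and 2 (16.7%) fell, shares near those of all genes, with a median of −0.11. After quantile normalization the median turned to 0.16, and 2 genes rose. FOXR1, a forkhead factor expressed in oocytes, was at 0 and 0.53 TPM at day 6 and at 12.1 and 14.9 TPM at day 20. Both xrOvary libraries were high (log2 difference 3.54, SE 0.29, adjusted p = 4.51e-12), and FOXR1 rose again to 29.3 and 32.2 TPM at day 40 (adjusted p = 0.00923). SOHLH2, a bHLH factor of early oocytes and spermatogonia, fell from 75.8 and 80.3 TPM to 27.7 and 33.0 TPM, and NOBOX, a homeobox factor of primordial follicles, was at 3.18 and 1.48 TPM at day 6 and listed at 0 in both day 20 libraries. Both were thus higher before entry than after it (adjusted p = 1.29e-08 and 1.65e-06). KHDC3L, of the maternal complex and the most abundant of the list, was at 289 and 243 TPM and at 319.6 and 341 TPM, and did not pass (adjusted p = 0.378).

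Germ cells lose DNA methylation after they are specified, by weakening its maintenance and by TET enzymes. Of 12 tested genes of DNA methylation, 4 (33.3%) fell and 0 rose, beside 13.8% and 6.56% of all genes tested, with a median of −0.04 that turned to 0.03 after median-ratio scaling and 0.08 after quantile normalization, where in each 1 gene rose. DNMT3L, the cofactor of de novo methyltransferases, fell from 10.9 and 13.7 TPM to 1.59 and 0 TPM, low in both xrOvary libraries (log2 difference −3.04, SE 0.38, adjusted p = 8.12e-08). The maintenance factors moved less. UHRF1, which guides the maintenance enzyme to replicated DNA, fell from 18.6 and 13.7 TPM to 11.3 and 6.99 TPM, and DNMT1, that enzyme, from 56.4 and 52.1 TPM to 32.6 and 35.9 TPM. The groups were apart in both genes (log2 differences −0.77 and −0.65, adjusted p = 0.000114 and 0.00369), and the call of DNMT1 was lost without any one of the 4 libraries (adjusted p from 0.013 to 0.0457) and that of UHRF1 without day 6 replicate 1, without day 20 replicate 2 or in the sorted libraries alone. GADD45A, a stress-induced protein linked to demethylation and the fourth faller, was at 50.5 and 44.2 TPM and at 23.8 and 33.2 TPM (adjusted p = 0.00769), and passed in none of the alternative scalings. The list had 2 fallers in the sorted libraries alone, without either day 20 library or without day 6 replicate 2, and 1 without day 6 replicate 1. TET1, looked up after these, was at 24.0 and 20.7 TPM and at 21.5 and 27.7 TPM, with overlapping groups (adjusted p = 0.819).

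Of 26 genes of H3K9 methylation and Polycomb, 1 (3.85%) rose and 2 (7.69%) fell, beside 6.56% and 13.8% of all genes tested, with a median of 0.04, and 3 rose after either scaling. TFDP1, a partner of E2F factors, fell from 4.37 and 4.47 TPM to 0.55 and 0.86 TPM, and SUV39H1, an H3K9 methyltransferase, from 82.9 and 74.7 TPM to 51.7 and 45.0 TPM. SUV39H1 was back at 86.0 and 72.4 TPM at day 40, and the step at entry differed from the step after it (difference of the steps −1.40, adjusted p = 0.000124); its call at entry was lost without day 20 replicate 2, which left 1 faller. EHMT1, also an H3K9 methyltransferase, rose from 44.2 and 45.1 TPM to 60.6 and 73.8 TPM (log2 difference 0.57, adjusted p = 0.00378), and did not pass without day 20 replicate 2 or either day 6 library. TRIM28 and CBX3, the most abundant of the list, did not pass (adjusted p = 0.0333 and 0.842).

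Retinoic acid was in the medium when aggregation began, and 11 of 16 tested genes of its pathway moved, 4 (25.0%) up and 7 (43.8%) down, beside 6.56% and 13.8% of all genes tested, with a median of −0.20. CRABP1 (gene 100385415), a carrier of retinoic acid in the cytosol, rose from 20.5 and 24.7 TPM to 95.4 and 102 TPM. The xrOvary libraries were both high (4.24-fold in TPM + 1, log2 difference 2.08, SE 0.36, adjusted p = 2.2e-05), at a level below the 758 and 1696 TPM of cjESCs. DHRS3, which reduces retinal and is induced by retinoic acid, rose from 16.6 and 17.8 TPM to 57.2 and 54.2 TPM. It was higher in both day 20 libraries (log2 difference 1.64, adjusted p = 5.9e-07). CYP26A1, the retinoic acid-degrading enzyme and a target of its receptors, named after its values were seen, was at 0 at day 6 and at 0.86 and 2.62 TPM at day 20, and did not pass without day 20 replicate 2 (adjusted p = 0.182) or either day 6 library. ALDH1A3, which makes retinoic acid, fell from 47.3 and 49.4 TPM to 16.4 and 11.9 TPM, and was at 3.47 and 3.5 TPM by day 40. The day 20 libraries lay between those of day 6 and day 40 (log2 difference at entry −1.72, adjusted p = 4.02e-05). STRA8, described above, was among the 7 fallers, and without day 6 replicate 2 the list had 2 risers.

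HOX genes, which mark body position and which retinoic acid can induce in somatic cells, stayed at the floor. With limma, 0 of 26 tested HOX genes passed in either direction, beside 6.56% higher and 13.8% lower of all genes tested (4351 genes at an unadjusted p under 0.05), and with a pseudocount of 0.1 there were 2 fallers. Their summed level was 2.73 and 4.56 TPM at day 6 and 0.71 and 1.48 TPM at day 20, 25 of them were listed at 0 in both day 20 libraries, and HOXA13 was the most abundant, at 0 and 0.88 TPM.

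Of 30 genes of WNT signaling and mesendoderm, 6 (20.0%) fell and 2 (6.67%) rose, beside 13.8% and 6.56% of all genes tested, with a median of −0.14 that turned to 0.06 after quantile normalization. TBXT (brachyury), the mesoderm factor that primate PGCLCs also express, was the most abundant, at 607 and 714 TPM and then at 298 and 354 TPM. It was lower in both day 20 libraries without passing (log2 difference −1.02, adjusted p = 0.0279), except in a fit of the sorted libraries alone. GATA6, an endoderm factor, fell from 6.81 and 11.6 TPM to 0.49 and 1.49 TPM, and WNT3, the ligand that starts the primitive streak, from 2.39 and 4.28 TPM to 0.74 and 0 TPM. Both were low in both xrOvary libraries (adjusted p = 6.12e-07 and 2.72e-05). NOTUM, a secreted WNT inhibitor and WNT target, fell from 94.4 and 111 TPM to 49.8 and 41.5 TPM (adjusted p = 0.000302). Of the risers, NODAL, a TGFβ-family ligand, went from 2.72 and 1.29 TPM to 6.31 and 9.18 TPM, and ZNRF3, a WNT receptor antagonist named after its values were seen, from 2.44 and 1.47 TPM to 3.83 and 6.18 TPM. Neither passed without day 6 replicate 2 or without day 20 replicate 2, nor did NOTUM, and without either of these the fallers numbered 3. In the sorted libraries alone 1 gene rose.

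Germ cells that settle in a gonad change their contacts. Of 31 genes of chemokine signaling and adhesion, 13 (41.9%) fell and 3 (9.68%) rose, beside 13.8% and 6.56% of all genes tested, with a median of −0.35. There were 7 fallers without day 6 replicate 1 and 5 risers in the sorted libraries alone. ITGB5, an integrin chain that binds vitronectin, fell from 50.7 and 72.1 TPM to 3.06 and 3.3 TPM (log2 difference −3.88, SE 0.24, adjusted p = 5.65e-15). ITGA5, the fibronectin receptor chain, fell from 370.2 and 377 TPM to 50.1 and 46.4 TPM (log2 difference −2.93, SE 0.24, adjusted p = 4.13e-12), and was at 11.3 TPM in both libraries of day 70. In both chains the xrOvary libraries agreed closely and lay far below those of day 6. ITGB1, the β chain that pairs with ITGA5, was at 425 and 431 TPM and at 323 and 301 TPM (log2 difference −0.46, adjusted p = 0.00642), and the cadherin CDH2 at 476 and 492 TPM and at 309 and 288 TPM (log2 difference −0.70, adjusted p = 0.00554). The groups were apart in these 2 as well, and both calls were lost under median-ratio scaling (adjusted p = 0.0112 and 0.0121), quantile normalization and without any one of the 4 libraries. EPCAM, the epithelial adhesion protein used to sort PGCLCs and the most abundant of the list at day 20, was at 360.4 and 340.4 TPM and at 361 and 325 TPM, with overlapping groups (adjusted p = 0.886).

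Upward in this list went CCR6, described above and picked as a marker of this step. So did CXCL12, the ligand of CXCR4 that draws migrating germ cells and is usually made by their surroundings. CXCL12 was at 0.7 and 0.09 TPM at day 6 and at 11.6 and 8.13 TPM at day 20. Both day 20 libraries were higher (7.88-fold in TPM + 1, log2 difference 2.98, SE 0.32, adjusted p = 3.84e-09), and it was at 31.9 and 32.8 TPM at day 40 and 58.4 and 59.4 TPM at day 70. The third riser, the chemokine CXCL14, named after its values were seen, went from 18.6 and 20.2 TPM to 62.6 and 54.8 TPM (adjusted p = 0.00304) and lost its call without any one of the 4 libraries.

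Among 13 genes of epithelial-mesenchymal transition, 4 (30.8%) fell and 1 (7.69%) rose, beside 13.8% and 6.56% of all genes tested, with a median of −0.14. VIM (gene 100408168), the intermediate filament vimentin, was the riser, from 194 and 184 TPM to 638 and 707 TPM. Both xrOvary libraries were higher (3.54-fold in TPM + 1, log2 difference 1.82, SE 0.19, adjusted p = 1.19e-09), and VIM then fell to 301 and 319 TPM at day 40 and to 123 and 151 TPM at day 70. The step at entry differed from the following step (difference of the steps 2.94, adjusted p = 4.33e-08). The epithelial genes that fell included CRB3, of the apical polarity complex, from 23.1 and 20.7 TPM to 5.03 and 2.0 TPM, and the tight junction genes CLDN6, from 128 and 123 TPM to 55.3 and 55.1 TPM, and CLDN7, from 152 and 150.2 TPM to 92.9 and 74.7 TPM. In each, both day 20 libraries were lower (adjusted p = 1.43e-09, 3.41e-06 and 9.04e-06). The fourth faller was the cadherin CDH2, given above, so the fallers were not epithelial genes alone. The transition factors SNAI1, SNAI2 and TWIST1, named after their values were seen, did not pass (log2 differences 0.11, −0.75 and 0.0). CDH1, E-cadherin, looked up after these, was at 26.9 and 21.7 TPM and at 25.9 and 18.5 TPM (adjusted p = 0.632).

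Genes of energy metabolism were read as separate lists. Of 28 genes of glycolysis and the hypoxia response, 12 (42.9%) fell and 0 rose past an adjusted p of 0.01, beside 13.8% and 6.56% of all genes, with a median of −0.56. Their summed level went from 6640 and 5938 TPM to 3818 and 4112 TPM. LDHA (gene 100404572), which turns pyruvate into lactate, fell from 1224 and 1123 TPM to 242 and 269 TPM. Both xrOvary libraries were low (4.58-fold lower in TPM + 1, log2 difference −2.20, SE 0.13, adjusted p = 1.62e-15), and LDHA stayed between 228 and 314 TPM at days 40 and 70. VEGFA, an angiogenic factor and target of hypoxia-inducible factors, fell from 19.4 and 22.2 TPM to 1.6 and 2.67 TPM, and ENO2, a glycolytic enolase, from 11.1 and 7.21 TPM to 1.52 and 0 TPM. The glucose transporter SLC2A1, named after its values were seen, fell from 138 and 121 TPM to 24.7 and 43.4 TPM. In each of these the groups were far apart (adjusted p = 1.76e-10, 1.16e-06 and 2.13e-09). ANKRD37, another hypoxia target, was at 18.7 and 23.7 TPM and at 7.9 and 0 TPM, and did not pass without day 20 replicate 2 (adjusted p = 0.0312) or in the sorted libraries alone. GAPDH, the most abundant of the list, was at 2680.4 and 2375 TPM and at 1972 and 2194 TPM, lower in both day 20 libraries without passing (adjusted p = 0.0178). In a fit of the sorted libraries alone 8 genes fell, as did 8 without day 20 replicate 1.

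Of 60 genes of oxidative phosphorylation, 12 (20.0%) rose and 1 (1.67%) fell, beside 6.56% and 13.8% of all genes tested, with a median of 0.20 that stayed positive after median-ratio scaling (0.27) and quantile normalization (0.25). The differences were small. ATP5ME, a subunit of the ATP synthase membrane part, had the largest, from 276 and 306 TPM to 729 and 630.4 TPM (log2 difference 1.22, SE 0.14, adjusted p = 1.54e-08), with both xrOvary libraries higher. NDUFB9 and NDUFA8, of respiratory complex I, rose by 0.67 and 0.59 on the log2 scale (adjusted p = 1.65e-05 and 0.000256), and NDUFA8 did not pass without day 6 replicate 1 or day 20 replicate 2. Without day 6 replicate 1 the list had 5 risers, and without day 6 replicate 2 it had 7. The faller, ATP5MF, named after its values were seen, was at 301 and 320.3 TPM and at 196 and 224 TPM, and the list had 0 fallers after median-ratio scaling, without either day 6 library or without day 20 replicate 1. ATP5F1B, the catalytic subunit and the most abundant, was at 1332 and 1356 TPM and at 1576 and 1546.5 TPM (adjusted p = 0.0354), higher in both day 20 libraries without passing.

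Of 66 cytosolic ribosomal protein genes, 27 (40.9%) rose and 2 (3.03%) fell, beside 6.56% and 13.8% of all genes tested, with a median of 0.23. Their summed level went from 163300 and 167500 TPM to 199800 and 198200 TPM, and to 240300 and 239900 TPM at day 70. Because TPM are shares of a fixed total, a rise of such abundant transcripts lowers the values of others. The median stayed positive after median-ratio scaling (0.31) and quantile normalization (0.13), with 19 and 15 risers. There were 12 risers without day 6 replicate 1, 16 without day 6 replicate 2 and 15 without day 20 replicate 2, and in each of these 3 fits 1 gene fell, while 0 fell after median-ratio scaling. RPL38 rose from 2726 and 2863 TPM to 4724 and 4902 TPM (log2 difference 0.78, adjusted p = 4.17e-05), and RPS14, the most abundant, was at 5609 and 5992 TPM and at 8101 and 7356 TPM (log2 difference 0.41, adjusted p = 0.00388). In both the groups were apart, and RPS14 did not pass under either scaling. RPL3L, a paralog of RPL3 best known from muscle, was the single DEG of the list, from 1.33 and 0.67 TPM to 10.5 and 6.39 TPM (log2 difference 2.22, adjusted p = 1.32e-06); reads of such paralogs may be shared between near-identical genes.

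**Figure D3:**
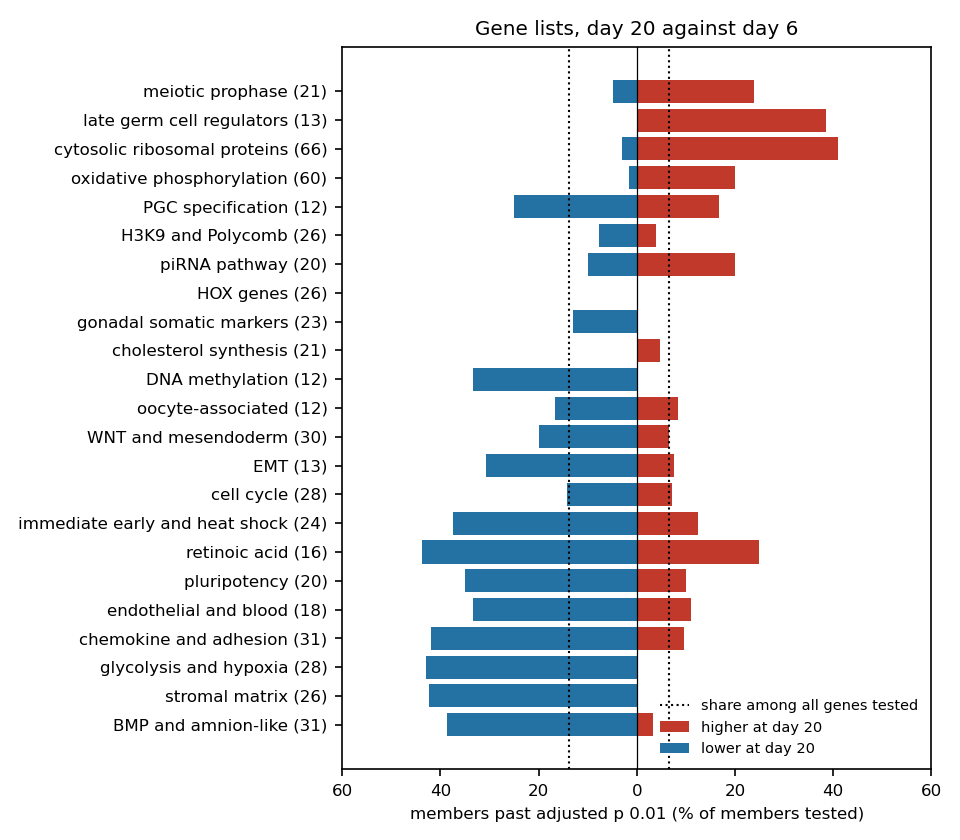
Share of the tested members of each gene list (number tested in brackets) that were higher (red, to the right) or lower (blue, to the left) at day 20 past an adjusted p of 0.01, in percent; dotted lines mark the shares among all genes tested, 6.56% higher and 13.8% lower. Ribosomal and late germ cell genes reach 40.9% and 38.5% on the right, and retinoic acid, glycolysis, stromal matrix and chemokine genes pass 40% on the left.

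Of 21 genes of cholesterol synthesis, 1 (4.76%) rose and 0 fell with limma, beside 6.56% and 13.8% of all genes tested. The median of −0.03 turned to 0.05 and 0.08 after the 2 scalings. ACAT2, a thiolase at the start of the pathway and the most abundant of the list, was at 290.1 and 286 TPM and at 287 and 368 TPM, with overlapping groups, and did not pass (adjusted p = 0.284). In a fit of the sorted libraries alone there was 1 faller.

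Of 28 cell cycle genes, 4 (14.3%) fell and 2 (7.14%) rose, shares close to those of all genes, with a median of −0.17. CDKN1C, an imprinted inhibitor of cyclin-dependent kinases, fell from 223 and 279 TPM to 83.7 and 71.2 TPM. Both day 20 libraries were lower (log2 difference −1.68, SE 0.29, adjusted p = 2.27e-05), and CDKN1C went on down to 27.03 and 26.1 TPM at day 40. CCND2, a D-type cyclin, rose from 13.1 and 10.2 TPM to 33.9 and 23.8 TPM, and CCND3 fell from 18.2 and 17.1 TPM to 7.08 and 10.5 TPM. These 2 cyclins thus went opposite ways (adjusted p = 0.000903 and 0.00142), and neither passed in a fit of the sorted libraries alone or without day 20 replicate 1, nor CCND2 without day 6 replicate 2 and CCND3 without day 6 replicate 1. The list had 0 risers without day 6 replicate 2, 1 without either day 20 library, and 2 fallers without day 20 replicate 2.

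Cells of other kinds could be in the sort, and reads of the mouse somatic cells could map to marmoset genes. Of 6 markers of gonadal somatic cells, 4 were in the table, and they summed to 0 and 0.16 TPM at day 6 and to 0.63 and 1.56 TPM at day 20. The most abundant, FOXL2 of granulosa cells, was at 0.17 and 1.56 TPM, NR5A1, a factor of steroid-making gonadal cells, was listed at 0 in both xrOvary libraries, and LHX9 and AMHR2 did not exceed 0.3 TPM. These 4 markers were thus at or near 0 in the sorted cells. In the wider list of 23 tested gonadal somatic genes, 0 rose with limma and 3 (13.0%) fell, a share of fallers close to the 13.8% of all genes tested, with a median of 0, while 3 rose after quantile normalization and 4 without day 20 replicate 1. The fallers were KRT19, a keratin, from 115 and 135 TPM to 15.5 and 14.7 TPM (adjusted p = 2.75e-14), IRX3, a homeobox factor, from 11.4 and 9.74 TPM to 1.53 and 0 TPM (adjusted p = 2.22e-08), and GATA6, given above. All 3 were low in both day 20 libraries. Higher by group means without passing, and singled out after their values were seen, were EMX2, a homeobox factor of the early gonad, at 0 and 0 TPM and at 0 and 4.39 TPM (adjusted p = 0.0131), and SOX9, the Sertoli cell factor, at 3.1 and 1.94 TPM and at 4.52 and 8.05 TPM (adjusted p = 0.0203). So were KITLG, which encodes SCF, at 0 and 0.17 TPM and at 1.3 and 0.78 TPM (adjusted p = 0.0252), and STAR, of steroid synthesis, at 0.14 and 0.1 TPM and at 0.15 and 2.06 TPM (adjusted p = 0.016). In EMX2 and STAR replicate 2 of day 20 carried the difference.

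Over 5 stromal markers, of which 2 fell past the threshold, the sum was 102 and 81.6 TPM at day 6 and 30.4 and 30.5 TPM at day 20, most of it PDGFRA, with 69.7 and 46.4 TPM and then 22.8 and 24.9 TPM (adjusted p = 0.0174). In the list of 26 stromal matrix genes, 11 (42.3%) fell and 0 rose, beside 13.8% and 6.56% of all genes tested, with a median of −0.65. Without day 20 replicate 1, 1 gene rose. There were 6 fallers without day 6 replicate 2, 7 without day 20 replicate 1 and 4 without day 20 replicate 2. COL1A2, a chain of collagen I, fell from 26.8 and 26.6 TPM to 4.09 and 2.5 TPM (log2 difference −2.71, SE 0.47, adjusted p = 2.49e-05), and SPARC, a matrix protein, from 704 and 711 TPM to 319 and 321 TPM (log2 difference −1.14, SE 0.11, adjusted p = 5.14e-10). The groups were apart in both. FBLN1, fibulin-1, the most abundant of the list, was at 957 and 973 TPM and at 748 and 908 TPM (adjusted p = 0.255). Whether a change in carried-over stromal cells takes part in the fall of adhesion and BMP genes was not tested.

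Macrophage markers summed to 3.37 and 4.63 TPM at day 6 and to 0 and 0.48 TPM at day 20, since CSF1R, the receptor of their growth factor, went from 3.37 and 4.56 TPM to 0 in both libraries (adjusted p = 2.67e-09), C1QA was listed at 0 in all 4 and PTPRC did not exceed 0.48 TPM. Endothelial markers summed to 21.0 and 18.0 TPM and then to 6.06 and 8.22 TPM, most of it CDH5, and of the 3 red cell markers ALAS2 alone was in the table, at 0.99 TPM or less. In no marker set of somatic cells except the gonadal one was the sum of both day 20 libraries above that of both day 6 libraries. In the wider list of 18 endothelial and blood genes, 6 (33.3%) fell and 2 (11.1%) rose, beside 13.8% and 6.56% of all genes tested, with a median of −0.33. The most abundant, CD14, a receptor for bacterial lipopolysaccharide, fell from 518 and 526 TPM to 215 and 262 TPM (log2 difference −1.14, adjusted p = 1.41e-06). ADGRE1, the adhesion receptor F4/80 of macrophages, rose from 2.53 and 2.94 TPM to 14.1 and 11.3 TPM (log2 difference 1.87, adjusted p = 2.21e-06), and did not pass with a pseudocount of 0.1. The other riser, CLDN5, a tight junction gene of endothelium, went from 0.63 and 0.43 TPM to 2.66 and 3.8 TPM and did not pass with a pseudocount of 0.1 either, nor without day 20 replicate 2 or either day 6 library.

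Genes that dissociation can induce moved in both directions. Of 24 immediate early and heat shock genes, 9 (37.5%) fell and 3 (12.5%) rose, beside 13.8% and 6.56% of all genes tested, with a median of −0.18, and 5 fell without day 20 replicate 2. FOSB, an AP-1 subunit, went from 1.46 and 2.39 TPM to 20.6 and 22.4 TPM and EGR3, a zinc finger factor of the same response, from 6.29 and 4.33 TPM to 32.5 and 39.3 TPM. Both were high in both xrOvary libraries (log2 differences 2.96 and 2.56, SE 0.66 and 0.55, adjusted p = 0.000677 and 0.000444), while other groups of the series had replicates far apart in them: at 96 h FOSB was at 1.17 and 9.49 TPM. In a fit of the sorted libraries alone 0 genes of the list rose, and 1 rose without day 6 replicate 2. JUN, the partner of FOS proteins, fell from 13.7 and 16.8 TPM to 2.27 and 2.77 TPM, and KLF2, a shear-responsive factor, from 7.41 and 12.1 TPM to 0.87 and 0 TPM. Both were low in both day 20 libraries (adjusted p = 1.73e-07 and 1.05e-08). The heat shock protein HSPB1 fell from 505 and 491 TPM to 245 and 262 TPM (log2 difference −0.97, adjusted p = 1.06e-05), and DNAJA1 was at 386 and 354 TPM and at 391.8 and 355 TPM (adjusted p = 0.968). The part of dissociation in these differences was not tested.

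The change at entry was set against the steps before and after it, which cover intervals of other lengths. From sorted cells at 96 h to day 6, 18 genes (0.161%) were called by the same rule, 1 higher (0.00893%) and 17 lower (0.152%), and 308 (2.75%) passed the adjusted p at any fold, 93 higher (0.831%) and 215 lower (1.92%). From day 20 to day 40, 23 genes (0.205%) were called, 9 higher (0.0804%) and 14 lower (0.125%), and 515 (4.6%) passed the adjusted p, 129 higher (1.15%) and 386 lower (3.45%). The steps share libraries with the entry step, so the difference between steps was tested in the same fit. The entry step differed from the following step by more than 2 on the log2 scale with an adjusted p under 0.01 in 337 genes (3.01%), higher at entry in 128 (1.14%) and lower in 209 (1.87%), and from the preceding step in 352 genes (3.14%), higher in 101 (0.902%) and lower in 251 (2.24%). The first count was 592 without day 20 replicate 1, 176 without day 20 replicate 2 and 181 in a fit of the sorted libraries alone, and the second was 225 without day 6 replicate 1. For BARX1 the difference of entry from the following step was 4.70 (adjusted p = 3.7e-07), for CCR6 4.80 (adjusted p = 7.91e-08), for GATA3 −5.57 (adjusted p = 3.88e-10) and for HAND1 −5.17 (adjusted p = 2.11e-08). These 4 genes were picked as markers of the entry step, so their differences are no test of it. GATA3 and HAND1 were at or near the floor at day 20 and could hardly fall further. Of ALDH1A3, in contrast, the difference was 0.02 (adjusted p = 1), and of MAEL 0.38 (adjusted p = 0.676), genes that moved on in the same direction by day 40 in their group means.

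The same course was read in 4 libraries that supplied neither side of the comparison, xrOvary cells at day 40 against sorted cells at 96 h, a contrast chosen after the data were seen that shares only the pooled spread. Here 423 genes (3.78%) were called, 87 higher (0.777%) and 336 lower (3.0%), and 3300 (29.5%) passed the adjusted p, 819 higher (7.31%) and 2481 lower (22.2%). Of the 67 genes higher at day 20, 43 were called higher again, which is 64.2% of the 67 and 49.4% of the 87, and 59 passed an adjusted p of 0.01. Of the 190 lower genes, 129 were called lower again, which is 67.9% of the 190 and 38.4% of the 336, and 181 passed. The median difference in this contrast was 2.33 for the 67 genes and −2.54 for the 190, beside −0.21 for all genes tested. BARX1, CCR6, GATA3 and HAND1 were at 4.58, 3.89, −5.84 and −5.03 on the log2 scale there. VIM, at 0.35 (adjusted p = 0.145), did not pass in this contrast, which holds no day 20 library. Its day 20 level was above that of both day 6 and day 40.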

How the data were processed

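The authors mapped single-end reads of poly(A) RNA from each library to the marmoset genome with STAR, quantified them with RSEM and deposited TPM for 14812 genes shared with humans (790300 to 839203 TPM per library). The deposited TPM were used as given. Read depth is unknown. After conversion to log2(TPM + 1), the 11197 genes that reached 1.5 in 1 or more of 54 libraries were tested in R 4.3.3 with limma 3.58.1: a mean for each of 27 groups, 27 residual degrees of freedom, an intensity trend, two-sided tests, and Benjamini-Hochberg adjustment over all genes. The procedure was tested on simulated data in which a gene had the same spread in every group, unlike the wider day 20 pair. Groups came from the labels. Named genes were BARX1, CCR6, GATA3 and HAND1, the 8 largest rises and falls among DEGs with a symbol, genes the study names, cell type markers, and from each of 23 lists up to 4 members with the largest called change and 2 most abundant. Members and lists were chosen with earlier results of these data known. Alternatives were a pseudocount of 0.1, no filter, median-ratio and quantile scaling, no trend, a replicate block, sorted or compared libraries only, and leaving out each library. List genes absent from the table are not used here, and 3 genes of the named set are not reported here. Figures were drawn with matplotlib 3.10.9.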

Additional observations from a re-analysis of the deposited data

How the results depend on the processing

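Depth, unknown here, limits what a value of 0 means, and 2 libraries a group limit every test. Fitting only the libraries compared leaves 2 residual degrees of freedom and 4 libraries for the DEGs. Limma then called 0 genes in each count: DEGs, DEGs higher, DEGs lower, genes past the adjusted p alone, those higher and those lower, and the contrasts of entry with the following and with the preceding step. At an unadjusted p under 0.05 there were 3650 genes for day 20 against day 6, and 2798 and 2347 for the 2 contrasts of steps. After quantile normalization 1113 genes passed the adjusted p as higher, a share of 47.0% of those past it beside 32.2% in the deposited scale (41.1% after median-ratio scaling). Fitting the 16 sorted libraries alone gave 181 genes in the contrast with the following step.

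Without each library in turn, the lone library being assumed to vary like the other groups, DEGs numbered 225 to 344 (55 to 74 higher, 158 to 270 lower), genes past the adjusted p 1402 to 2042 (417 to 653 higher, 985 to 1389 lower), and the contrasts with the following and preceding step 176 to 592 and 225 to 458. The cause of these shifts was not tested beyond the library left out.

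The replicate number as a block gave 257 DEGs, the same 257 genes, 2339 genes past the adjusted p, and 339 and 356 genes in the contrasts of steps, and it changed the call of none of the 144 named genes tested. The deviations of same-numbered day 6 and day 20 libraries had a correlation across genes of −0.004. With a pair of libraries per group, this value does not show whether same-numbered libraries share an induction, which the labels do not state. Named genes that kept their call numbered 138 under median-ratio scaling, 139 under quantile normalization, 135 with a pseudocount of 0.1, 129 in the sorted libraries and 121 to 133 without a library, counting genes that passed in neither fit as kept; none changed sign past the threshold. In the compared libraries alone none passed, so that only the 41 that had not passed before stayed as they were. The promoter motif description was not run.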

Other observations

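Some DEGs outside the named genes and lists were picked out after their values were seen. FSCN1, the actin-bundling protein fascin, was the most abundant of those that fell, from 2850.3 and 2993 TPM at day 6 to 631 and 715 TPM at day 20. Both xrOvary libraries were low (log2 difference −2.12, SE 0.15, adjusted p = 9.83e-14). SLC7A5, the large neutral amino acid transporter, fell from 785 and 788 TPM to 67.2 and 99.5 TPM (log2 difference −3.25, SE 0.20, adjusted p = 2.79e-15), and TGFB1, the ligand TGFβ1, from 66.6 and 70.8 TPM to 4.37 and 6.31 TPM (log2 difference −3.48, SE 0.19, adjusted p = 1.27e-16). The matrix metalloproteinase MMP14 fell from 111 and 102 TPM to 10.3 and 11.8 TPM. In each the 2 day 6 libraries agreed closely and stood far above day 20, and without any one library the adjusted p of SLC7A5 did not exceed 5.41e-12. At day 70 SLC7A5 was at 175 and 154 TPM, above its level at day 20, whereas TGFB1 was at 0.54 and 0.78 TPM.

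Among genes that rose, DMRT3, a relative of DMRT1, went from 0.38 and 0.52 TPM to 7.78 and 19.3 TPM (log2 difference 3.20, SE 0.27, adjusted p = 6.58e-12), with replicate 2 of day 20 the higher. YBX2, a germ cell protein that binds and stores mRNA, went from 1.38 and 2.43 TPM to 14.8 and 10.6 TPM (log2 difference 2.25, SE 0.29, adjusted p = 1.15e-07) and to 33.6 and 25.2 TPM at day 40. FBP1, an enzyme of gluconeogenesis, went from 4.41 and 4.98 TPM to 39.9 and 32.6 TPM (SE 0.32 on the log2 scale, adjusted p = 1.73e-08). All 3 were above both day 6 libraries in both day 20 libraries.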
